A study of Mus musculus with 32 samples.

Results

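The Zfp genes are the mouse genes named Zfp followed by a number, most of which encode proteins built from repeated zinc fingers. The genes described here had such a name and a mean normalized count of at least 100 in both the Lin- and the CD11b+ RNA-seq table, and 215 genes met both criteria. They were 2.05% of the 10498 genes that reached this mean in both tables, out of 23620 genes listed in both. Of the 368 Zfp-named genes listed in both tables, 153 fell below the mean in at least 1 of them. The genes were chosen by these mean counts, so their levels are given as a description without a test.

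The study compared leukemia cells with and without the RNA-binding protein IGF2BP3 in mice. All cells carried the MLL-Af4 fusion, delivered by the MSCV-MLL-FLAG-Af4 retrovirus. Lin- cells were lineage-depleted bone marrow cells that were transduced, selected with G418 and grown in culture with cytokines that included SCF, IL-6 and FLT3, whereas CD11b+ cells were isolated with magnetic beads from splenic tumors of leukemic mice. RNA-seq covered each cell type with 3 libraries from WT/MLL-Af4 and 3 from I3KO/MLL-Af4 cells, 12 in all. I3KO mice carried a homozygous germline deletion of Igf2bp3 exon 2, which arose from leaky Vav1-Cre expression, and the donor and recipient mice of the bone marrow transplants were females aged 8 weeks. For the mice behind the cultured Lin- cells, no age is given in the sources used here. IGF2BP3 enhanced crosslinking-immunoprecipitation (eCLIP), which sequences the RNA crosslinked to a protein, was done with WT/MLL-Af4 cells. There were 6 Lin- eCLIP libraries, of which 3 were biological and 3 technical replicates, and 4 CD11b+ eCLIP libraries, of which 2 were biological and 2 technical, with a size-matched input (smInput) library for each of the 10. Which technical replicate belongs to which biological one is not given. The 2 cell types differed in tissue, culture and selection at once, so these cannot be told apart in any comparison between them.

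In the common C2H2 zinc finger, a pair of cysteines and a pair of histidines hold a zinc ion, and arrays of such fingers read DNA sequence. Many mouse Zfp proteins also carry a KRAB domain, which recruits TRIM28 and the SETDB1 histone methyltransferase and silences retroelements and imprinted genes. A smaller group, the Zfp36 family, has CCCH fingers that bind AU-rich elements of mRNA and promote its decay. IGF2BP3 is an oncofetal RNA-binding protein that binds mRNA and, in eCLIP data, often CA-rich sequence.

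The mm10 sequences below belong to the peaks to which the results return. They were read from the RefSeq copy of the mm10 genome, on the strand of the gene, and peaks that overlapped between libraries were merged. The first pair are the only merged peaks of Zfp genes found in all 10 eCLIP libraries. The Zfp36l2 peak lay in a coding exon on the minus strand, chr17:84186146-84186421. The Zfp318 peak lay in an intron on the plus strand, chr17:46404164-46404203. Neither holds ACACAC or CACACA, so nothing is in capitals.
Zfp36l2 coding exon: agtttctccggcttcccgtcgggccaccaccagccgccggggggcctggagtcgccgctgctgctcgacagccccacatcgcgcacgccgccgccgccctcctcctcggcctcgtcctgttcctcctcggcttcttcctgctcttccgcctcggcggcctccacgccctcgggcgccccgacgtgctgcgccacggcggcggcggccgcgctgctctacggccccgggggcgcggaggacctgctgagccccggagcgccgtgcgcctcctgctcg
Zfp318 intron: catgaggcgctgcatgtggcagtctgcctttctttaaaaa

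The next peaks show the kind of sequence bound beside splice sites, a frequent position in Lin- cells. Capitals mark exon bases and lower case marks intron bases. They lay at chr7:81037951-81038081 on the plus strand (Zfp592), chr11:80395039-80395112 on the plus strand (Zfp207), chr8:82771339-82771403 on the minus strand (Zfp330) and chr2:120530496-120530563 on the minus strand (Zfp106).
Zfp592 short intron between coding exons: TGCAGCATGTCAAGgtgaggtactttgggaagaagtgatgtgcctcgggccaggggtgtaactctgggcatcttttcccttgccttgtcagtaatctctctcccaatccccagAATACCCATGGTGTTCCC
Zfp207 intron end and next exon: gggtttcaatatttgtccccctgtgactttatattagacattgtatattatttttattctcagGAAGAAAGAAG
Zfp330 intron end and next exon: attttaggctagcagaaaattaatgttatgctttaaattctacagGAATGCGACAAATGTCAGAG
Zfp106 intron end and next exon: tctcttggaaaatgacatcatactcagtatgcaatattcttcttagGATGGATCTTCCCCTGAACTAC

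The last set comes from introns and shows the simple repeats that carried many peaks in CD11b+ cells. Except for the Zfp638 site, each also had a peak in 2 or 3 Lin- libraries. Capitals mark ACACAC or CACACA and, in Zfp638, the letters GGAGAGAAA, which also occur in the coding sequence of the linker between C2H2 fingers. The Zfp710 peaks lay on the plus strand at chr7:80026709-80026803, chr7:80030839-80030924 and chr7:80059890-80059953. Those of Zfp148 and Zfp638 lay on the plus strand at chr16:33458420-33458513 and chr6:83923130-83923206, and that of Zfp871 on the minus strand at chr17:32787775-32787842.
Zfp710 intron, GA-rich: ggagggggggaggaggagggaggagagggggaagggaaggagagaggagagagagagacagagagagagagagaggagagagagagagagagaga
Zfp710 intron, CA repeat: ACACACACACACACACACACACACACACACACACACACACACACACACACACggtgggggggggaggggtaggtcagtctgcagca
Zfp710 intron, GT repeat: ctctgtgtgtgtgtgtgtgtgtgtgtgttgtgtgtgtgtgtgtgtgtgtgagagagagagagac
Zfp148 intron, CA repeat: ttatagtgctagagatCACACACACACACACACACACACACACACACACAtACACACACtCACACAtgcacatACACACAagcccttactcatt
Zfp871 intron, GT repeat: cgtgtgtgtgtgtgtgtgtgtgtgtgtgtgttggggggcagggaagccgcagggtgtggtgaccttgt
Zfp638 intron, GA-rich: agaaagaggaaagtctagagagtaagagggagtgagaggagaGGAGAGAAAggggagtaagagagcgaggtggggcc

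The Lin- libraries held 4040 to 10042 filtered peaks and the CD11b+ libraries 7085 to 10054, and the read depth behind them is unknown, so a gene without a peak is one in which none was detected. The tables gave 1 mean per gene over both genotypes, so the loss of Igf2bp3 could not be checked per library. Of 7 progenitor markers, 6 stood higher in rank in Lin- cells, among them Kit, Cd34 and Flt3. The 6 myeloid markers listed for both stood higher in CD11b+ cells, among them Lyz2 and Csf1r, whereas Itgam, which encodes CD11b itself, had a mean of 16.98 there and was not listed for Lin- cells. Over 11 markers of other lineages, the summed mean was 272 in Lin- and 2690 in CD11b+ cells, mostly from the globin genes Hba-a1 at 1268 and Hbb-bs at 1083. The T cell markers Cd3g and Trac had means under 10 in both, and the part of such cells in the values below was not tested.

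By sequence, the 215 genes fell into 2 families of similar size. Translation of their annotated coding sequences gave a KRAB pattern in 106 and none in 109. A gene's pattern is a match of letters, and Zfp445, a known KRAB protein, did not match. At least 1 C2H2 finger was found in 208 proteins, with a median of 10 fingers, 12 in the KRAB group and 7 in the others, and a maximum of 40 in Zfp142. Of the 7 proteins without a C2H2 match, 4 (Zfp36, Zfp36l1, Zfp36l2 and Zfp330) held 2 matches each to a CCCH pattern, and the other 3 were Zfp703, Zfp839 and the short Zfp993. The genes lay on 20 chromosomes, with 50 on chromosome 7 and 30 on chromosome 17. Another Zfp gene lay within 100 kb of 80 of the 106 KRAB genes (75.5%) and of 32 of the 109 others (29.4%), so KRAB genes had such neighbours more often. Neighbours of this kind can share sequence, and reads are then hard to assign to 1 of them.

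The expressed Zfp genes had lower levels than other expressed genes. Their median mean count was 834 in Lin- and 314 in CD11b+ cells, against 1290 and 796 for the other 10283 genes. Per kb of exon, the medians were 210 and 83.6 for Zfp genes and 441 and 269 for the others. Within the family, KRAB genes had a median level per kb of 141 in Lin- and 58.4 in CD11b+ cells, and those without KRAB had 296 and 113. In these bulk samples, fewer cells of a type and less RNA per cell cannot be told apart.

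Zfp36l2, a CCCH factor of mRNA decay, had the highest level per kb in Lin- cells, with a mean count per kb of 5805, and the value in CD11b+ cells was 2366. Zfp993 stood second in Lin- cells at 2474 per kb and first in CD11b+ cells at 3087 per kb. Its annotated exons add up to 0.387 kb, and it lies on chromosome 4 near Zfp981 and Zfp992. Zfp207, which encodes the spindle protein BuGZ, had 1915 per kb in Lin- and 871 per kb in CD11b+ cells. Zfp422 was also among the 5 highest in both, at 1127 and 576 per kb. Zfp605 completed the 5 in Lin- cells at 1696 per kb, and Zfp981 those in CD11b+ cells at 1590 per kb. The lowest level per kb in both was that of the KRAB gene Zfp846, at 16.3 in Lin- and 8.86 in CD11b+ cells. The other low genes were Zfp870, Zfp619, Zfp28 and Zfp111 in Lin- cells, at 20.6 to 33.5 per kb, and Zfp606, Zfp945, Zfp316 and Zfp507 in CD11b+ cells, at 15.5 to 19.7 per kb.

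**Figure D1:**
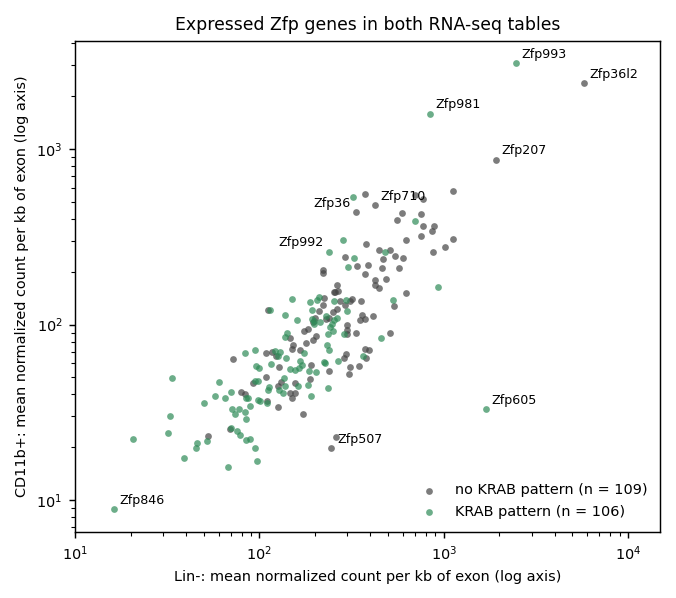
Mean normalized count per kb of exon of the 215 Zfp genes in the Lin- table (x axis) and the CD11b+ table (y axis), both on log axes; each point is a gene, and green points have the KRAB pattern. Each value is the authors' mean over 6 libraries, so no error can be drawn. Zfp605 lies far below the other genes, at 1696 per kb in Lin- and 33.0 per kb in CD11b+ cells.

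The tables were normalized separately, so positions between them were compared as percentiles among the genes with a mean of at least 10 in that table. The Zfp genes had a median percentile of 58.1 in Lin- and 46.0 in CD11b+ cells, and the other expressed genes had 68.1 and 66.8. The percentile was lower in CD11b+ cells for 189 of 215 Zfp genes (87.9%) and for 6112 of 10283 others (59.4%). The median difference, CD11b+ minus Lin-, was -8.12 percentile points for Zfp genes and -2.11 for the others. Zfp605 had the largest drop, from the percentile 93.7 to 29.0. Zfp704 went from 89.3 to 46.0, Zfp507 from 74.0 to 32.0, Zfp800 from 82.5 to 52.2 and Zfp808 from 82.5 to 52.4. In the opposite direction, Zfp991 went from 59.8 to 80.7, Zfp414 from 47.6 to 63.8, Zfp36 from 65.6 to 80.9, Zfp993 from 61.2 to 76.4 and Zfp992 from 64.2 to 76.1. Of these 5, Zfp991, Zfp992 and Zfp993 are KRAB genes on chromosome 4, and Zfp36 encodes tristetraprolin. No replicate values stand behind these ranks, and they were not tested.

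The count of at least 100 excluded genes close to it. The members nearest to it, by the lower of their 2 means, were Zfp661 at 103, Zfp605 at 104, Zfp560 and Zfp729b at 107 and Zfp54 at 108. Just below it were Zfp296 and Zfp60 at 99.3, Zfp128 at 97.8 and Zfp974 and Zfp799 at 97.1 to 97.2.

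IGF2BP3 peaks were found on a smaller share of Zfp genes than of all expressed genes. A gene was called bound where at least 1 of the cell type's libraries had a peak with its identifier after the smInput filter. In Lin- cells 94 of 215 Zfp genes (43.7%) were bound, and 57.1% of all 10498 expressed genes were. In CD11b+ cells 90 (41.9%) were bound, and 51.3% of all expressed genes were. Of the Zfp genes, 61 were bound in both cell types, 33 in Lin- cells alone, 29 in CD11b+ cells alone and 92 in neither. The 61 were 64.9% of those bound in Lin- and 67.8% of those bound in CD11b+ cells, and the same shares over all expressed genes were 68.0% and 75.7%.

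Of the 92 Zfp genes without a peak in either cell type, 64 were KRAB genes. In Lin- cells 24 of 106 KRAB genes (22.6%) were bound and 70 of the 109 others (64.2%). In CD11b+ cells 31 KRAB genes (29.2%) and 59 of the others (54.1%) were bound. The KRAB genes also had the lower levels, so the share was read within bands of the lower of the 2 mean counts. Between 100 and 300, where 76 of the 106 KRAB genes lay, 18.4% of KRAB genes, 28.6% of the other Zfp genes and 23.8% of the remaining expressed genes were bound in Lin- cells, and 19.7%, 28.6% and 24.8% in CD11b+ cells. Between 300 and 1000, the shares in Lin- cells were 30.8% (8 of 26) for KRAB genes, 70.0% (42 of 60) for other Zfp genes and 53.0% for the remaining genes. In CD11b+ cells these were 46.2%, 53.3% and 46.5%. At 1000 or more, 20 of 21 Zfp genes without KRAB were bound in Lin- cells (95.2%) and 83.3% of the remaining genes, and only 4 KRAB genes reached this level. In CD11b+ cells 19 of these 21 (90.5%), all 4 KRAB genes and 73.9% of the remaining genes were bound. Taken whole, the Zfp genes had 21.2% against 23.8% of the remaining genes, 58.1% against 53.0% and 88.0% against 83.3% in the 3 bands in Lin- cells. In CD11b+ cells they had 22.1% against 24.8%, 51.2% against 46.5% and, at 1000 or more, 92.0% (23 of 25) against 73.9%. Among genes of 10000 to 30000 bases, 20.5% of 78 KRAB genes and 63.8% of 47 other Zfp genes were bound in Lin- cells, against 60.7% of the remaining genes. Of the 112 Zfp genes with another Zfp gene within 100 kb, 30 were bound in Lin- and 35 in CD11b+ cells. Of the 103 without such a neighbour, 64 and 55 were bound. The part of such neighbours in the shares of KRAB genes was not tested.

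**Figure D2:**
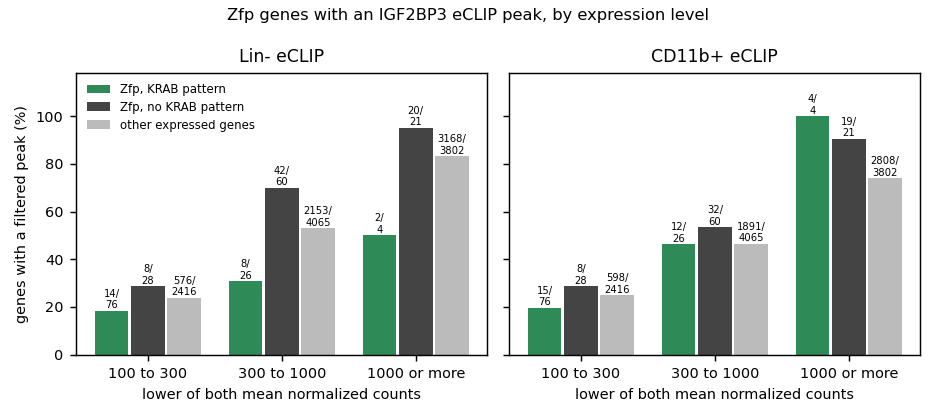
Percent of genes with at least 1 filtered IGF2BP3 peak in any library, in Lin- cells (left) and CD11b+ cells (right), by the lower of the gene's 2 mean normalized counts; numbers above the bars are bound genes over genes in the band. In Lin- cells, the KRAB bar is the lowest in each band (18.4%, 30.8% and 50%).

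Per library, the number of bound Zfp genes was 52, 51 and 43 in the biological Lin- libraries and 53 and 50 in those of CD11b+ cells, so the cell types overlapped. The technical libraries gave 24, 32 and 36 in Lin- and 50 and 30 in CD11b+ cells. Of the 10498 expressed genes, 3197, 3686 and 3649 were bound in the biological Lin- libraries and 3362 and 3590 in those of CD11b+ cells. In the technical libraries these were 2006, 2582 and 2242 in Lin- and 3179 and 2787 in CD11b+ cells. Peaks on Zfp genes made up 1.11%, 1.11% and 0.852% of the filtered peaks of the biological Lin- libraries and 1.13% and 1.005% in CD11b+ cells. A filtered peak was present in all 3 biological Lin- libraries for 19 of 215 Zfp genes, against 1677 of 10498 expressed genes (16%). In both biological CD11b+ libraries a peak was present for 30 of 215 Zfp genes, against 2328 of 10498 (22.2%). Both Zfp shares were the lower ones. The requirement differs in its number of libraries, so these counts do not compare the cell types.

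The 745 filtered peaks on Zfp genes merged into 355 sites with a median width of 55 bases, and few sites recurred. In Lin- cells, 142 of 219 merged sites came from 1 library, 77 from 2 or more and 5 from all 6. In CD11b+ cells 133 of 209 came from 1 library, 76 from 2 or more and 15 from all 4. Over both cell types, 65 sites were shared, which is 30.5% of the Lin- sites and 31.4% of the CD11b+ sites. An smInput peak of any library lay on the same bases as 4 of the 355. Peaks on smInput peaks had already been dropped by the filter, so a low overlap was set in advance. The 10 genes with most sites held 35.2% of the sites in Lin- and 36.8% in CD11b+ cells.

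Among the Zfp genes whose proteins act on RNA, 12 genes were listed, and 8 were bound in Lin- and 9 in CD11b+ cells, where 57.1% and 51.3% of all expressed genes were. Except for Zfp36l1 and Zfp326, they had mean counts of at least 300 in both cell types. Outside the Zfp family, 53.0% of genes between 300 and 1000 and 83.3% from 1000 were bound in Lin- cells. In CD11b+ cells these shares were 46.5% and 73.9%. Zfp36l2 had 5, 37 and 4 peaks in the biological Lin- libraries, 3, 14 and 2 in the technical ones, 5 and 8 in the biological CD11b+ libraries and 3 and 6 in the technical ones. Lin- replicate 2 alone stood above the rest, and Zfp36l2 held 33.3% of the Zfp peaks of that library. The cell types overlapped. Of its 11 sites merged over both cell types, 7 had their centre in a coding exon, 2 in the intron, 1 in the 5'UTR and 1 in the 3'UTR. In the coding sequence of 484 codons, the site found in all 10 libraries covered codons 263 to 354, after the pair of CCCH fingers at codons 161 to 180 and 199 to 218. The number in each peak's name, read here as its reads, was 15 to 186 for this site in Lin- and 36 to 92 in CD11b+ cells. A site at codons 414 to 446 was found in 5 Lin- and 3 CD11b+ libraries, as was a site with its centre in the intron that reached codons 18 to 23. The 5'UTR site was found in 3 Lin- libraries and 1 CD11b+ library. The bases printed above for the first site are 77.2% G or C and include no CA motif.

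**Figure D3:**
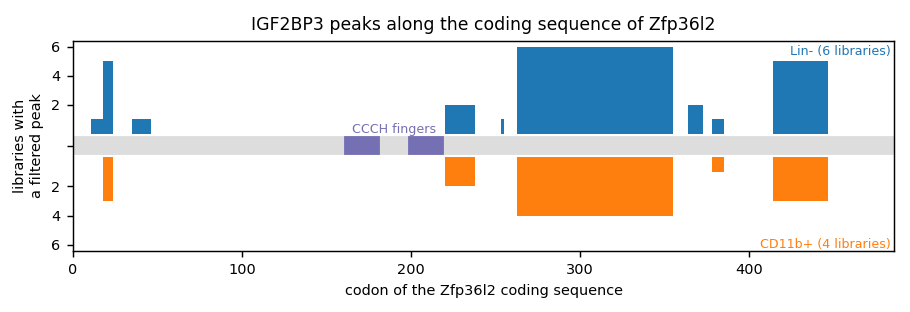
Coding bases of merged IGF2BP3 sites along the 484 codons of the Zfp36l2 coding sequence (x axis, codon number), with the number of libraries that had a peak there, above for Lin- cells (of 6) and below for CD11b+ cells (of 4); purple boxes are the CCCH fingers. The site at codons 263 to 354 was found in all 6 and all 4 libraries and lies beyond the fingers.

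The other members of the Zfp36 family differed. Zfp36 had 1, 1 and 2 peaks in the biological Lin- libraries, 1, 1 and 2 in the technical ones, 2 and 1 in the biological CD11b+ libraries and 2 and 2 in the technical ones. Every library thus had a peak, and the counts overlapped. Its most frequent site lay at chr7:28378473-28378541, which has its centre in an annotated 5'UTR and includes coding bases, in 5 Lin- and 4 CD11b+ libraries. Zfp36l1 had no peak in any of the 10 libraries, with mean counts of 916 in Lin- and 156 in CD11b+ cells.

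Zfp207 had 7, 5 and 9 peaks in the biological Lin- libraries and 1 and 3 in the biological CD11b+ libraries, so the cell types did not overlap. The technical libraries, with 1, 4 and 1 against 3 and 1, did overlap. Of its 15 merged sites, 9 included coding bases, and 12 had their centre in an intron, as in the sequence printed above. Zfp638, which encodes a protein that silences retroviral DNA together with the HUSH complex, had no peak in the 6 Lin- libraries and 1 and 1 in the biological CD11b+ libraries, with 2 and 0 in the technical ones. Zfp106, an RNA-binding protein needed by motor neurons, had 2, 1 and 1 peaks in the biological Lin- libraries and 1 and 3 in CD11b+ cells, which overlapped. Zfp622, a factor of large ribosomal subunit assembly, had 2, 3 and 0 against 0 and 1. Zfp598, the ubiquitin ligase that senses collided ribosomes, had 1, 1 and 2 against 1 and 0. Zfp326 had 1, 0 and 0 against 1 and 1. Zfp346, Zfp385a and Zfp830 had at most 1 peak in any library.

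Among the 25 listed genes of chromatin and transcription, 18 were expressed, of which 17 were bound in Lin- and 13 in CD11b+ cells, beside 57.1% and 51.3% of all expressed genes. All 18 had mean counts of at least 300 in both cell types. Outside the Zfp family, 53.0% of genes between 300 and 1000 and 83.3% from 1000 were bound in Lin- cells. In CD11b+ cells these shares were 46.5% and 73.9%. Zfp710 had 2, 1 and 2 peaks in the biological Lin- libraries and 9 and 8 in the biological CD11b+ libraries. The technical libraries, with 2, 4 and 2 against 5 and 9, did not overlap either. Of its 11 sites, 10 lay in introns and 1 in the 5'UTR, and the 3 printed above are simple repeats. The central 30 bases of the CA repeat occur at 107 places of the genome and those of the GT repeat at 289. These bases do not by themselves place the peaks in Zfp710, whereas those of the GA-rich site occur at 1 place. The GT repeat site was found in 3 Lin- and 3 CD11b+ libraries, and the CA repeat site in 2 Lin- and 4 CD11b+ libraries. The GA-rich site had 20 to 26 reads in 2 Lin- libraries and 45 to 96 in the 4 CD11b+ libraries. The mean count of Zfp710 stood at the percentile 85.3 in Lin- and 91.8 in CD11b+ cells.

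Zfp148, a factor that binds GC-rich promoters, had 1, 2 and 3 peaks in the biological Lin- libraries and 2 and 6 in CD11b+ cells, which overlapped. Its CA repeat site, printed above, had a peak in 2 Lin- libraries, both technical, and in all 4 CD11b+ libraries. The central 30 bases of that site occur at 119 places of the genome. Zfp217, an oncogene that binds the CtBP corepressor, had 3, 2 and 2 against 4 and 4, without overlap. Per 10000 filtered peaks of the library its cell types overlapped, as did the technical libraries, with 1, 1 and 1 against 3 and 0. Zfp219 had 2, 2 and 2 against 4 and 2, and Zfp384, whose human homologue is a fusion partner in B cell leukemia, had 2, 2 and 2 against 3 and 2. In both genes the cell types shared the count of 2. Zfp592, part of a complex with Zfp687 and Zmynd8, had 2, 2 and 3 against 2 and 0, and its site across a short intron, printed above, was found in all 6 Lin- and 2 CD11b+ libraries. Zfp335, a component of histone methyltransferase complexes, had 3, 1 and 0 against 1 and 1. Zfp64 had 0, 1 and 0 against 1 and 2, which overlapped. Zfp703 alone among the 18 had no peak in any library.

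Zfp516, which drives brown fat genes, had 0, 5 and 2 peaks in the biological Lin- libraries and 2 and 9 in CD11b+ cells, so the ranges overlapped. Zfp407 had no peak in the biological Lin- libraries and 3 and 3 in the biological CD11b+ libraries. In the technical libraries it had 0, 0 and 1 against 0 and 5. Its 7 sites lay in introns of a long gene, from 84128027 to 84589725 of chromosome 18.

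Of 8 listed KRAB genes with a described target, 4 were expressed in both cell types. Zfp445, which guards imprinted loci, had 1, 0 and 0 peaks in the biological Lin- libraries and 0 and 3 in CD11b+ cells. Zfp568, a repressor of placental Igf2, had none in Lin- libraries and 0 and 1 in the biological CD11b+ libraries. Zfp809, which silences retroviruses at the primer binding site, and Zfp932, which represses endogenous retroviruses, had none in any library.

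The KRAB genes with most peaks were Zfp871, Zfp981 and Zfp992. Zfp871 had 2, 1 and 1 peaks in the biological Lin- libraries and 4 and 3 in CD11b+ cells. The technical libraries, with 0, 1 and 1 against 4 and 3, did not overlap either. A site in its 3'UTR was found in all 4 CD11b+ libraries and in no Lin- library. The GT repeat site of Zfp871, printed above, was found in 3 Lin- and 4 CD11b+ libraries. Zfp981 had 3, 4 and 3 in the biological and 3, 3 and 2 in the technical Lin- libraries, against 0 and 1 and 0 and 0 in CD11b+ cells, although its percentile was higher in CD11b+ cells (95.5) than in Lin- cells (84.1). Zfp992 had no peak in the 6 Lin- libraries, and 5 and 1 in the biological and 5 and 0 in the technical CD11b+ libraries. The central 30 bases of the 3 Lin- sites of Zfp981 occur at 6 to 9 places of the genome, and those of the Zfp992 sites at 1 to 166 places, so these bases do not by themselves tell the copies apart. The sequences of these sites are not printed.

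Sites with a further match in the genome, simple repeats included, were more frequent on KRAB genes. The central 30 bases occurred elsewhere in the genome for 84 of 355 sites (23.7%), 28 of 73 on KRAB genes (38.4%) and 56 of 282 on the others (19.9%). By cell type, they did for 36 of 213 sites in Lin- (16.9%) and for 71 of 207 in CD11b+ cells (34.3%). The Zfp318 site found in all libraries had a copy too. It lay inside Gm23037, an annotated RNA gene of 324 bases within the Zfp318 intron, and the same 30 bases occur in Rn7sk, the 331-base gene of the abundant 7SK RNA on chromosome 9. This site had 42 to 215 reads in Lin- and 98 to 257 in CD11b+ libraries. Zfp318, whose protein governs the switch from IgM to IgD splicing in B cells, had 1 peak in each of 9 libraries and 2 in the remaining one. It was the only site of Zfp318 in either cell type.

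The comparison of peak counts between the cell types rested on the 3 biological Lin- and 2 biological CD11b+ libraries. An exact two-sided permutation test of 3 against 2 cannot give a p below 0.1, so a gene was called where the peak counts of the cell types did not overlap. More peaks in Lin- cells were called for 4 of 215 Zfp genes (1.86%), against 4.76% of all expressed genes. These were Zfp207, Zfp280d, Zfp800 and Zfp981. More peaks in CD11b+ cells were called for 7 (3.26%), against 6.8% of all expressed genes. These were Zfp217, Zfp407, Zfp46, Zfp638, Zfp710, Zfp871 and Zfp992. Per 10000 filtered peaks of each library, the calls were 4 and 7 again, with Zfp217 lost and another gene in its place. Of all expressed genes, 6.73% and 7.74% were then called. The exact permutation p was 0.2 for Zfp207 and for Zfp217 and 0.1 for the other 9. Both shares lay below that of all expressed genes, also among the 123 Zfp genes bound in either cell type, at 3.25% and 5.69% against 6.85% and 9.78%.

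The calls on few peaks had little behind them. Zfp280d had 1 peak in each biological Lin- library at 3 different sites and none in the biological CD11b+ libraries, and technical CD11b+ replicate 3 had 1. Zfp800 had 1, 1 and 2 peaks against 0 and 0, and no CD11b+ library had any. Zfp46 had none in the 6 Lin- libraries and 1 and 1 in the biological CD11b+ libraries, at a single site in the 3'UTR. With the technical libraries included, 6 against 4, the counts stayed apart only for Zfp981 in one direction and for Zfp710 and Zfp871 in the other. They did so for 0.791% and 2.99% of all expressed genes.

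**Figure D4:**
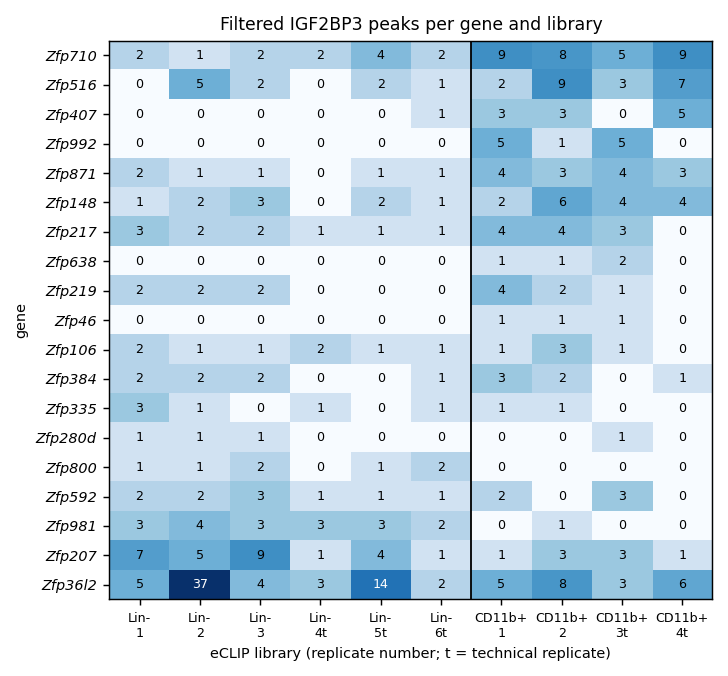
Filtered IGF2BP3 peaks per gene (rows) in each eCLIP library (columns, t for technical replicates), for the 10 Zfp genes with most merged sites in each cell type and the 11 called genes; the number in each cell is the count and darker cells hold more. Zfp710 had 5 to 9 peaks in CD11b+ libraries and 1 to 4 in Lin- libraries, and the 37 peaks of Zfp36l2 in Lin- replicate 2 stand alone.

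Most peaks on Zfp genes lay in introns by their centre, in both cell types. The shares were 84.1%, 49.5% and 77.0% in the biological Lin- libraries and 68.8% and 81.2% in CD11b+ cells, so they overlapped. On all other genes the shares were 82.0%, 60.5% and 79.0% in Lin- and 79.0% and 85.8% in CD11b+ cells. Coding exons held 8.54%, 35.1% and 6.76% of Zfp peaks in Lin- and 6.25% and 6.93% in CD11b+ cells. Without Zfp36l2, these were 5.19%, 10.8% and 4.29% in Lin- and 1.099% and 1.08% in CD11b+ cells, against 7.19%, 17.2% and 8.08%, and 2.43% and 1.78% on other genes. The 3'UTR held 1.22%, 3.60% and 2.70% of Zfp peaks in Lin- and 15.6% and 8.91% in CD11b+ cells, without overlap, and other genes had 2.03%, 4.43% and 3.15% against 12.1% and 5.25%. In the 5'UTR, Zfp genes had 6.10%, 11.7% and 13.5% in Lin- and 9.38% and 2.97% in CD11b+ cells, and other genes had 2.37%, 8.62% and 4.14% and 2.499% and 1.85%, so each biological library had the higher share on Zfp genes.

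Within introns, the position differed between the cell types. Of the intronic Zfp peaks, 78.3%, 49.1% and 70.2% in the biological Lin- libraries had their centre within 100 bases of an exon edge, against 24.2% and 21.95% in CD11b+ cells. The ranges did not overlap, nor did they with the technical libraries, at 60.0%, 51.3% and 62.9% and at 11.8% and 11.5%. Other expressed genes had 82.9%, 55.5% and 76.9% in Lin- and 26.0% and 20.9% in CD11b+ cells, so both groups of genes differed between the cell types in the same direction. In each biological Lin- library the share was lower on Zfp genes. Of the 121 such peaks in the biological Lin- libraries, 95 lay before an exon (78.5%), as in the sequences of Zfp207, Zfp330 and Zfp106, and 26 after one. On other expressed genes 8980 of 12195 lay before one (73.6%). When any overlap with an exon was counted in place of the centre, 35.1% of Zfp peaks in Lin- cells stayed intronic as the median of the biological libraries, against 77.0% by the centre. The smInput libraries and the eCLIP libraries were deduplicated and peak-called with different settings, which were shared by both cell types.

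Repeats were found more often in the peaks of CD11b+ cells. At least 50% of the bases were repeat-masked in 18.3%, 24.3% and 25.7% of Zfp peaks in the biological Lin- libraries and in 53.1% and 60.4% in CD11b+ cells. These ranges did not overlap, and those of other genes, 18.5%, 23.99% and 23.6% against 48.0% and 62.7%, were close to them. ACACAC or CACACA, on the strand of the gene, occurred in 3.66%, 9.01% and 5.41% of Zfp peaks in Lin- and in 9.38% and 20.8% in CD11b+ cells. The biological ranges touch at 9.01% and 9.38%, and the technical Lin- libraries reached 15.8%, so the cell types overlapped. On other genes the shares were 4.69%, 7.31% and 9.15% in Lin- and 8.94% and 20.5% in CD11b+ cells. Over all libraries, 33 of 34 CA peaks on Zfp genes in Lin- and 52 of 58 in CD11b+ cells lay in introns.

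**Figure D5:**
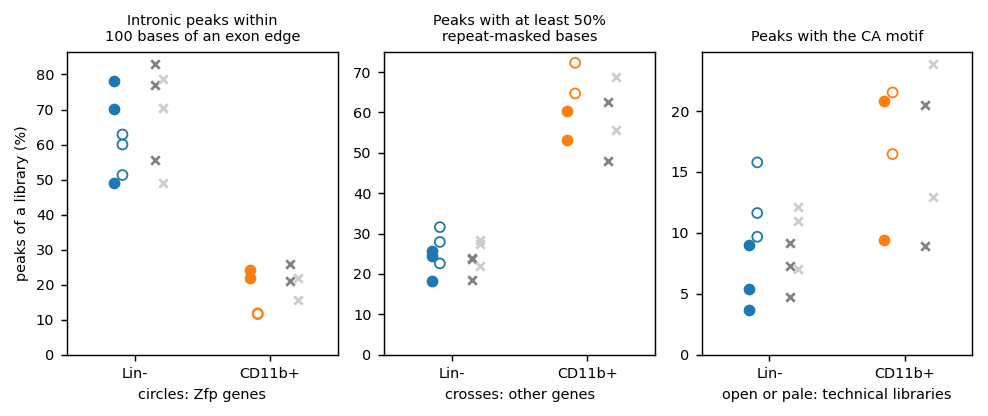
Share of IGF2BP3 peaks per eCLIP library, in percent: intronic peaks within 100 bases of an exon edge (left), peaks with at least 50% repeat-masked bases (middle) and peaks with ACACAC or CACACA (right). Circles are Zfp genes, crosses other genes, filled or dark symbols biological and open or pale symbols technical libraries. Lin- and CD11b+ libraries are apart in the left and middle panels, and circles and crosses of a cell type are intermixed.

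The linker letters of the finger arrays were rare in peaks. GGAGAGAAA, found in the linker between C2H2 fingers, occurs 415 times in the coding sequences of 89 of the Zfp genes, 393 of them in KRAB genes. No Zfp peak in the 6 Lin- libraries held it, and 5 peaks in CD11b+ libraries did, in Zfp638 and Zfp608, all in introns. In the 2 biological CD11b+ libraries it was in 1 Zfp peak each, 1.04% and 0.990% of Zfp peaks, both at the Zfp638 site printed above. On other genes GGAGAGAAA occurred in 0.0278%, 0.0715% and 0.0235% of peaks in the biological Lin- libraries and in 0.216% and 0.163% in CD11b+ cells. The higher Zfp share in CD11b+ cells thus rests on 1 site.

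The size-matched smInput libraries had 2 to 14 peaks on Zfp genes each. Before the filter, Zfp genes held 0.955%, 0.999% and 0.807% of eCLIP peaks in the biological Lin- libraries and 0.498%, 0.653% and 1.05% of the peaks in the smInput libraries of the same number. For CD11b+ cells they were 1.05% and 0.909% in eCLIP and 0.721% and 0.743% in smInput. The share was higher in eCLIP in 4 of these 5 pairs and lower in Lin- replicate 3.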

How the data were processed

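Processed data of 32 mouse libraries were used, and all values refer to mm10. The authors aligned the single-end RNA-seq reads with STAR 2.5.3a, masked repeats with Bowtie2 and compared genotypes with DESeq2 in CD11b+ and fdrtool in Lin- cells. They deposited 1 table per cell type, from which only the mean normalized count over 6 libraries (a normalized signal, not a raw count) was used. The fold changes, standard errors, p-values and flags of the authors' comparison, also deposited there, were not used, so the effect of I3KO is not reported. For eCLIP, the authors ran CLIPper on each library and dropped peaks that lay on smInput peaks. The deposited value of each peak is unnamed and was taken for a p-value. Per the file headers, smInput and eCLIP libraries differed in deduplication and peak calling settings.

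Peaks were joined to genes by Ensembl ID, placed by their centre in the basic GENCODE annotation, and merged across libraries where they overlapped by at least 1 base on a strand. Python 3.11.15, pandas 2.3.3, NumPy 2.4.6, pysam 0.24.0 and matplotlib 3.10.9 were used. Peak counts per gene were compared over all 10498 expressed genes by an exact permutation test, and the steps were tested on simulated data. Replicates labelled biological are not said to be separate animals or cultures, so the spread between them may be technical. Named genes are the 10 with most merged sites and the 5 with highest and lowest level per kb in each cell type, those nearest the threshold, called genes, the 5 largest percentile gains and losses, genes with a peak in every biological library where a result turns on them, and the listed members. Zfp318 and Zfp330 are printed for their sequence. The members, lists and tests were chosen with earlier results of these data known. Alternatives were other libraries, peaks per 10000 filtered peaks, peak thresholds, filters and ways to place a peak, leaving out each replicate and a replicate block. Those without Zfp36l2, by distance to an exon, for repeats and for KRAB genes were chosen after seeing the data.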

Additional observations from a re-analysis of the deposited data

Results flagged for a closer look

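Of 34 groups of 4 to 6 library values that were examined, 4 held a library far from the others by Dixon's criterion. Chance meets it in about 1 of 20 groups of independent, normally distributed values. These groups also hold technical replicates and small tied counts, so that rate may not apply to them. Zfp36l2 had 37 peaks in Lin- replicate 2, where the other 5 Lin- libraries had 2 to 14. Zfp710 had 4 peaks in Lin- replicate 5, a technical library, where the others had 1 or 2. In CD11b+ replicate 4, a technical library, 30 Zfp genes were bound, where the others had 50 to 53. Of all expressed genes, 2787 were bound in that library and 3179 to 3590 in the others. In CD11b+ replicate 1, 68.75% of Zfp peaks lay in introns, where the others had 80.0% to 81.2%.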

How the results depend on the processing

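Of 148 recomputed values, 109 moved by less than the SD of the biological libraries or, for counts, by less than 1.5 times, and 39 moved further. That SD was wide for the coding share of Zfp peaks in Lin- cells, which was 8.54% as the median and 20.9% and 21.8% without replicates 1 and 3. For a share within a cell type, leaving out 1 of its 2 or 3 biological libraries cannot move the median beyond that SD. Those values count among the 109 whatever the data, so the 109 do not measure how stable the results are. The median excess of eCLIP over smInput went from 0.326 to 0.171 percentage points with the technical pairs. Counts of peaks are the measure of yield, and read depth is unknown. Replicates that share a number are not shown to be paired, since the correlation of their deviations was 0.0228 over 2 pairs. With the replicate block, more peaks in Lin- cells were called for 9 Zfp genes and more in CD11b+ cells for 12. A gene then needs only the libraries numbered 1 and 2 to differ, and 8.28% and 10.1% of all expressed genes were called. With biological and technical libraries together, the counts were 1 and 2, and 0.791% and 2.99% of all expressed genes were called. The calls lost were Zfp207, Zfp280d and Zfp800 in Lin- cells and Zfp217, Zfp407, Zfp46, Zfp638 and Zfp992 in CD11b+ cells. Leaving out 1 biological library gave 5 to 8 calls in Lin- cells, against 6.8% to 7.94% of all expressed genes. In CD11b+ cells it gave 8 to 24 calls, against 7.81% to 14.6%. The widest change came without a CD11b+ library, with 21 calls without replicate 1 and 24 without replicate 2, since fewer libraries have to differ. All expressed genes had 14.6% and 13.5% in these 2 settings. With a peak value below 0.001, 4 were called in CD11b+ cells, 3 of them among the 7, with Zfp217, Zfp46, Zfp638 and Zfp992 lost. In Lin- cells 4 were called, 2 of them among those reported, with Zfp280d and Zfp800 lost. At this peak value, 5.72% of all expressed genes were called in CD11b+ and 2.4% in Lin- cells. Per 10000 filtered peaks, Zfp217 was lost.

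With a peak value below 0.001, 47 Zfp genes were bound in Lin- (9 KRAB and 38 others) and 41 in CD11b+ cells (11 KRAB and 30 others). With a peak required in at least 2 biological libraries, 40 and 30 were bound. For the 30 in CD11b+ cells, the share of all expressed genes was 22.2%. That share was not computed for the stricter value or for Lin- cells, so those drops are not shown to be particular to Zfp genes. Leaving out 1 biological library and the technical ones left 50 to 53 bound in CD11b+ cells. The share of peaks on Zfp genes in Lin- cells was 0.916% with technical libraries, 0.955% before the smInput filter, 0.787% with a peak value below 0.001 and 0.806% without Zfp36l2. In CD11b+ cells it was 0.978% before the filter and 0.864% with the stricter value.

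With any overlap with an exon, 35.1% of Zfp peaks were intronic and 49.5% coding in Lin- cells, and 65.9% and 15.2% in CD11b+ cells, where the coding share was 1.09% without Zfp36l2. With technical libraries, the CA motif was in 9.34% of Lin- peaks, and in CD11b+ cells the linker letters in 1.29%, repeats in 62.6% and the share near an exon edge was 16.9%. The linker share was 0.967% before the filter and 1.51% with peaks extended by 20 bases. The share near an edge in CD11b+ cells was 19.6% within 50 and 27.3% within 200 bases. The causes of these changes were not tested.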

Other observations

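The proteins through which KRAB domains act were read beside the Zfp genes, from a list of 13 genes. All 13 were expressed in both cell types, 12 had an IGF2BP3 peak in Lin- and 8 in CD11b+ cells, where 57.1% and 51.3% of all expressed genes did. Most of the 13 had a mean count of at least 1000 in both cell types. Among expressed genes outside the Zfp family at that level, 83.3% were bound in Lin- and 73.9% in CD11b+ cells. In the comparison of the biological libraries, 5 of the 13 had more peaks in every Lin- library than in any CD11b+ library, where 4.76% of all expressed genes did, and none had more in CD11b+ cells, where 6.8% did. Trim28, the KRAB corepressor, had 7, 6 and 5 peaks in Lin- and 1 and 0 in CD11b+ cells, with 6, 3 and 1 against 0 and 0 in the technical libraries, which do not overlap either. The technical libraries of Dnmt1, with 3, 2 and 1 against 1 and 0, and of Setdb1, with 2, 0 and 1 against 0 and 1, did overlap, and those of Uhrf1 and Chd4 did not. Dnmt1, the maintenance DNA methyltransferase, had 5, 10 and 7 against 1 and 1. Uhrf1, its partner, had 6, 4 and 2 against 0 and 0. Chd4, the remodeler of the NuRD complex, had 4, 2 and 3 against 1 and 0, and the histone methyltransferase Setdb1 had 1, 1 and 1 against 0 and 0. Each of these 5 also stood at a lower percentile of mean count in CD11b+ than in Lin- cells, for Trim28 94.2 against 98.9, and the part of the level in the peak counts was not tested. Atf7ip, which stabilizes SETDB1, had 0, 0 and 2 peaks in Lin- and 2 and 11 in CD11b+ cells, which overlap.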
